A study of Rattus norvegicus with 4 samples.

Results

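Aquaporins are membrane channels that let water, and in some members glycerol or anions, cross cell membranes along an osmotic gradient. In the eye they are best known for aqueous humour formation and outflow, for the hydration of cornea and lens, and for water exchange through the Mueller glia of the retina. The genes described here were chosen by their symbols. Of 10 aquaporin genes named by the rule (Aqp1 to Aqp9 and Aqp11), 7 had a row in the deposited tables, out of 14485 gene names in all, and Aqp7, Aqp8 and Aqp9 are not analysed here. The lens aquaporin gene Mip was no part of the rule.

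RNA sequencing was done on eye and on retina of wild-type rats of the Long Evans strain, with RNA of 5 rats pooled for each library. Of the 4 labelled samples, 2 are technical replicates of eye and 2 of retina, and 1 column of values per tissue was analysed. The sources used here do not give the age, sex or treatment of the rats. With 1 pool and 1 column for a tissue, called its library below, replicates cannot be compared and p-values are not given. By tissue label the samples are eye or retina, but their free-text descriptions, also those of the eye samples, speak of retina mRNA. The markers listed for both tissues differed in the way the tissue labels say. The lists were chosen with earlier results of these data known, so this is no independent check of the labels. The 5 rod photoreceptor markers used were high in both libraries, with summed values of 6833 in eye and 13215 in retina. The 5 lens fibre markers with a row summed to 34682 in eye and 417 in retina, and the 4 corneal epithelium markers with a row to 4400 in eye and 4.61 in retina.

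Values are taken as RPKM, the reads of a gene divided by the length of its gene model and by the reads of the library, a unit inferred from the numbers themselves. They had been scaled by 28071917 reads in eye and 51944762 in retina, and whole reads could be recovered for every aquaporin. Intervals in brackets are exact 95% intervals from those reads. They cover counting error only and compare these 2 libraries, not the tissues. A gene was called higher or lower at a fold of at least 2, with 0.1 added to each value, provided that its larger value reached 1. A difference in such bulk libraries cannot separate fewer cells of a type from less RNA per cell.

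The water channels stood in a different order in the 2 libraries. Aqp5, Aqp1 and Aqp3 led the eye library, whereas Aqp1 and Aqp4 led the retina library. Of the 7 aquaporins, 6 passed the minimum of 1. Of these 6, Aqp1, Aqp3 and Aqp5 were called higher in eye, Aqp6 was called lower in eye, and Aqp4 and Aqp11 were not called. Over all 13259 genes tested, 17.8% were called higher in eye and 7.95% lower, 25.8% in all. Aqp2 was near 0 in both libraries and was not tested.

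**Figure D1:**
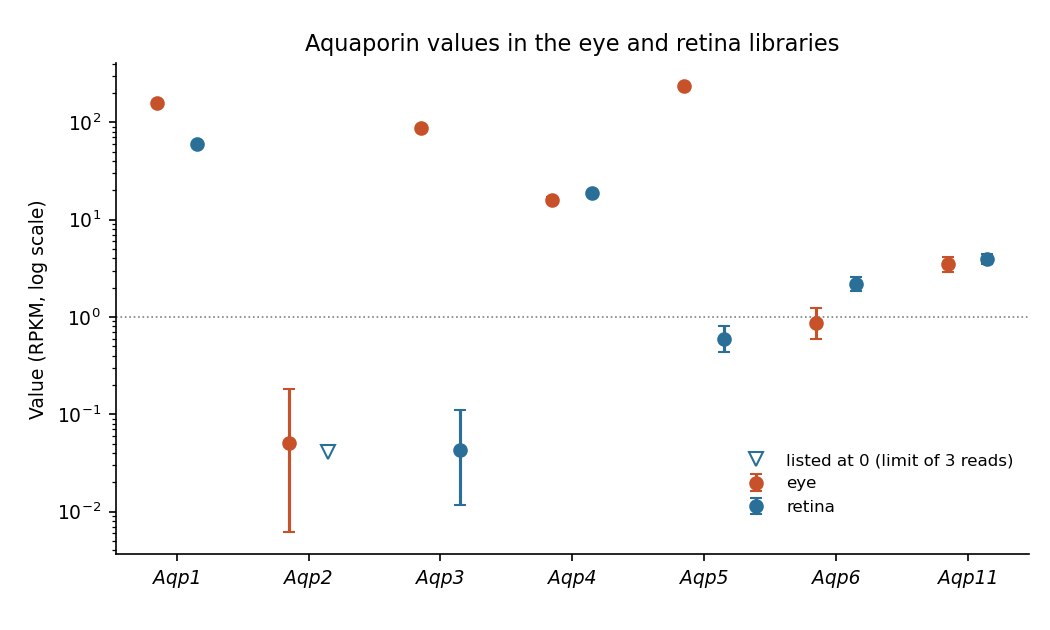
Value of each aquaporin (RPKM, log scale) in the eye library and the retina library, with exact 95% counting intervals as bars, which are smaller than the points where none is seen. The dotted line is the minimum of 1, the open triangle marks the level of 3 reads for a gene listed at 0, and Aqp3 and Aqp5 stand far apart between the libraries while Aqp4 and Aqp11 lie close together.

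In the eye library the order by value per length was Aqp5, Aqp1, Aqp3, Aqp4, Aqp11, Aqp6 and Aqp2, from 235 down to 0.0510, and no neighbours in that order had overlapping counting intervals. In the retina library the order was Aqp1, Aqp4, Aqp11, Aqp6, Aqp5, Aqp3 and Aqp2, from 59.3 down to 0, and only the intervals of the last pair, Aqp3 and Aqp2, overlapped. The summed value of the 7 genes was 502 in eye and 84.9 in retina, 5.91-fold higher in eye. Aqp5 made up 46.9% of that sum in eye and 0.702% in retina. Aqp1 made up 31.3% in eye and 69.9% in retina. Aqp4 accounted for 3.21% in eye and 22.1% in retina.

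**Figure D2:**
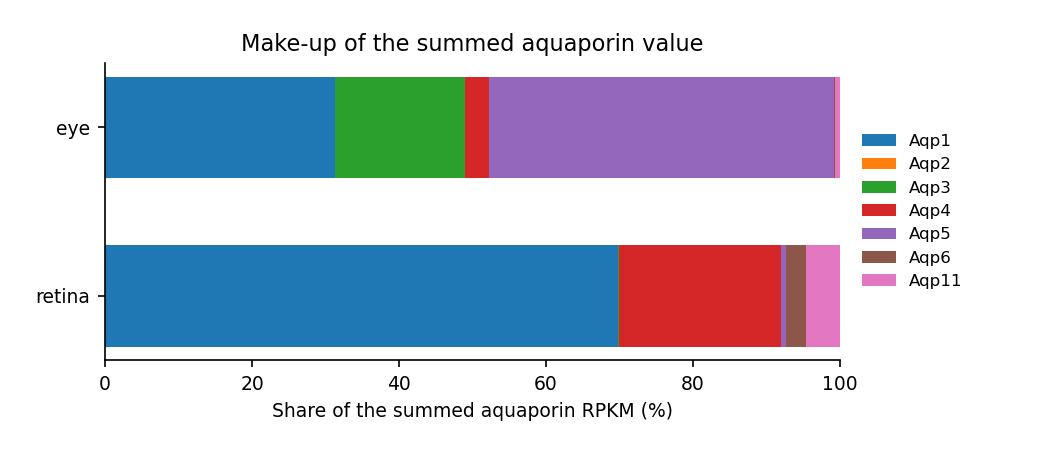
Share of the summed aquaporin RPKM (percent) held by each gene, with 1 bar for eye and 1 for retina. Aqp5, Aqp1 and Aqp3 fill most of the eye bar, and Aqp1 and Aqp4, with 69.9% and 22.1%, most of the retina bar.

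The sequences before the start sites of 4 of these genes are shown because they come from the 3 genes higher in eye and the 1 gene lower in eye. They are the 250 bases before the annotated start, from RefSeq for the rat assembly GRCr8, written in the direction of the gene. Capitals mark TATAA or TATATA, the letters of a TATA box, on the gene's strand in the last 60 bases. The position of Aqp5 is chr7:132601278-132601527 (plus strand), of Aqp3 chr5:61040684-61040933 (minus strand), of Aqp1 chr4:85812534-85812783 (plus strand) and of Aqp6 chr7:132610819-132611068 (plus strand).
Aqp5: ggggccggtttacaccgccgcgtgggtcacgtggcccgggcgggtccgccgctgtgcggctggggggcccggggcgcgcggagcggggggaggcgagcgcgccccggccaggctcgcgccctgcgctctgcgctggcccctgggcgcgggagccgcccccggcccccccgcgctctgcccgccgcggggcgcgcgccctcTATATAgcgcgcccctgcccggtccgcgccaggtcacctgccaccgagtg
Aqp3: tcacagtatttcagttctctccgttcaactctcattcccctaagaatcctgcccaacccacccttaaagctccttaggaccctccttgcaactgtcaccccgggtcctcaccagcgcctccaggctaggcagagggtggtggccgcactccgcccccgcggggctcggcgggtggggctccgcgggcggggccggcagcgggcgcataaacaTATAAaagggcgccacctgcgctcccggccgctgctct
Aqp1: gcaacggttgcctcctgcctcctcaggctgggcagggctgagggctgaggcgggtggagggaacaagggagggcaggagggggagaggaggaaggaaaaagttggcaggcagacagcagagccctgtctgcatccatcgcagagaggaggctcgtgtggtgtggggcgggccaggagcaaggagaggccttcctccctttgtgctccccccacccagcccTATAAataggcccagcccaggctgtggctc
Aqp6: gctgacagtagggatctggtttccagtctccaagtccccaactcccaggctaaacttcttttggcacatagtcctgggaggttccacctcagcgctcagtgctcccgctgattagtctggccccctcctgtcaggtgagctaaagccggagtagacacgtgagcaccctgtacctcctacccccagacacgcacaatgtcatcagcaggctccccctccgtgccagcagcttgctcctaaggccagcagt

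All 7 aquaporins had such a window, Aqp4 with 2 of them. The letters TATAA or TATATA began in the last 60 bases, on the gene's strand, in Aqp1, Aqp2, Aqp3 and Aqp5, and in 5.76% of all 33469 windows, a limit of 60 bases that was set after the matches were seen. On either strand of the whole 250 bases, TATAA was found in Aqp1, Aqp2, Aqp3 and Aqp4 and in 24.0% of all windows, and TATATA in Aqp5 and in 5.45%. The match in Aqp4 lay outside the last 60 bases, with its first base at position -77 from the start. Aqp6 and Aqp11 had neither. The window of Aqp5 was 83.2% G or C, against a median of 51.2% over all windows, and those of Aqp3 and Aqp1 were both 65.2%. Those of Aqp11, Aqp6 and Aqp2 were 70.8%, 58.4% and 54.4%, and the 2 of Aqp4 were 44.8% and 51.6%. Searched in the same way, GGGCGG (the GC box) was found in Aqp1, Aqp3, Aqp4, Aqp5 and Aqp11 and in 30.5% of all windows, and CACGTG (an E-box) in Aqp2, Aqp5 and Aqp6 and in 5.59%. TAATCC, a core that photoreceptor homeobox factors bind, and TGANTCA, the AP-1 core, were in 0 of the 7 genes and in 6.34% of all windows each. CCAAT was found in Aqp4 and in 34.0% of all windows. These matches describe letters in windows of another assembly than the one named for the reads, and start sites were not measured here.

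Aqp5 is a water-selective channel of secretory and surface epithelia, found in corneal epithelium and lacrimal gland. Its value was 235 in eye (231 to 240, from 9395 reads) and 0.596 in retina (0.433 to 0.800, from 44 reads). It was the most abundant aquaporin of the eye library, at rank 175 of 14485 genes, and stood at rank 12584 in retina. The ratio of eye to retina was 395 (294 to 544).

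Aqp3 is an aquaglyceroporin, a channel that passes glycerol as well as water, and marks the basal and lateral membranes of stratified epithelia such as cornea and conjunctiva. Its value was 88.5 in eye (85.9 to 91.1, from 4469 reads) and 0.0428 in retina, where it rested on 4 reads (0.0117 to 0.110). The ratio was 2067, but with so few retina reads its interval ran from 807 to 7591 and lay wholly above that of Aqp5. By log2 ratio with 0.1 added, Aqp3 ranked 20 and Aqp5 ranked 29 from the highest of 13259 genes. Adding 1 in place of 0.1 brought the log2 ratio of Aqp3 from 9.28 to 6.42, below that of Aqp5 at 7.21. With 0.01 added Aqp3 stayed above, at 10.7 against 8.60, so the order turned only with the largest value added.

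**Figure D3:**
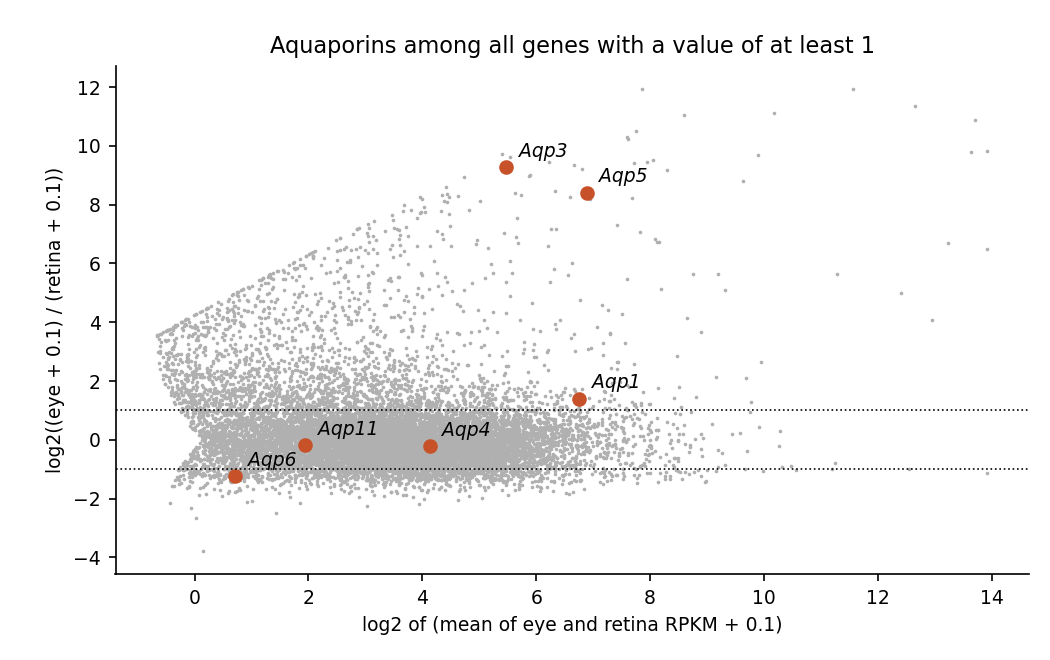
Each grey point is 1 of the 13259 tested genes, with the log2 of its mean value across (RPKM, 0.1 added) and the log2 ratio of eye over retina upward. Dotted lines mark a fold of 2, and the labelled aquaporins lie from -1.25 (Aqp6) to 9.28 (Aqp3).

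Markers of corneal epithelium were higher in eye, as Aqp3 and Aqp5 were, and so were markers of corneal stroma, lens and skeletal muscle. All 4 corneal epithelium markers with a row were called higher in eye, and Krt5 had none. Their ratios ran from 103 for Krt15 to 2428 for Krt12, the keratin typical of corneal epithelium, with 853 for Aldh3a1, an abundant corneal enzyme. In retina 0 of the 4 were listed at 0, with Krt14 at 0.0264, Krt12 at 0.955, Krt15 at 1.41 and Aldh3a1 at 2.22. The 4 keratocyte markers were called higher too, with sums of 993 in eye and 14.9 in retina. Higher in eye as well were the 5 lens fibre markers with a row, at ratios from 13.9 to 456, and the 6 skeletal muscle markers, at ratios from 109 to 24218. The last ratio, that of Myl1, rested on 1 retina read, with an interval from 4346 to 956642. Of the 5 goblet cell markers only Agr2 had a row, with 1.34 in eye, and retina listed it at 0. Of 3 gland markers with a row, Pigr (1.12 in eye) and Ltf (0.0129 in eye) were likewise listed at 0 for retina, and Amy1a had 0.673 in eye against 3.14. The part of any of these cell types in the Aqp3 and Aqp5 values was not tested.

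Over the 2 libraries, the genes nearest to Aqp5 in log2 value (0.1 added) were Krt13, a keratin of wet stratified epithelia such as conjunctiva, at 246 in eye and 0.745 in retina, Lum (lumican, a proteoglycan of the corneal stroma) at 193 and 0.524, and Perp, a desmosome protein, at 161 and 0.350. Their distances were 0.29, 0.33 and 0.84. A likeness over 2 libraries is a match of 2 numbers and nothing more.

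Aqp1, a water-selective channel of erythrocytes, many endothelia, corneal endothelium, ciliary epithelium and outflow tissue, was abundant in both libraries. It stood at 157 in eye (154 to 160, from 11575 reads) and at 59.3 in retina (58.0 to 60.6, from 8081 reads). Its rank was 276 in eye and 969 in retina, at percentiles 98.1 and 93.3 of all genes. The ratio of eye to retina was 2.65 (2.58 to 2.73), a log2 ratio of 1.40 with 0.1 added. It was 1.59 with lens and crystallin genes left out of the totals, and 0.76, no longer called, when both libraries were set to equal summed values.

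Markers of endothelium, erythrocytes and corneal endothelium, which are among the cells that carry Aqp1, also lay higher in eye. No list was fixed for ciliary epithelium, outflow tissue or neurons of the inner retina. Aqp1 led the retina library, and retinal cells other than rods, Mueller glia and astrocytes were not looked at as its source. All 6 endothelial markers with a row were called, with ratios from 2.96 for Pecam1 to 12.6 for Plvap, a protein of fenestrated vessels, and sums of 74.6 in eye and 13.6 in retina. The 3 tested erythrocyte markers had ratios from 5.88 (Hbb-b1) to 6.35 (Hba-a2), and all 4 with a row summed to 351 in eye and 56.0 in retina. The 3 corneal endothelium markers, Slc4a11, Col8a1 and Col8a2, had ratios of 6.69, 6.41 and 11.4. The ratio of Aqp1 was thus below that of every tested marker in these 3 lists. All 6 pigment cell markers were called higher in eye too, at ratios from 9.08 to 15.4 and with sums of 988 and 87.0. Of the 4 tested macrophage and granulocyte markers 3 were called higher, and all 6 with a row summed to 60.8 in eye and 13.9 in retina. The rod and Mueller glia markers lay lower in eye, at ratios from 0.464 to 0.579 for rods and from 0.698 to 0.949 for Mueller glia. The part of any of these cell types in the Aqp1 value was not tested. The genes nearest to Aqp1 over both libraries were Arpc2, a subunit of the actin nucleating complex (153 in eye and 61.4 in retina), Sdcbp, the scaffold protein syntenin (149 and 63.6), and Timp2, a metalloproteinase inhibitor (147 and 67.8), at distances of 0.07, 0.13 and 0.21.

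**Figure D4:**
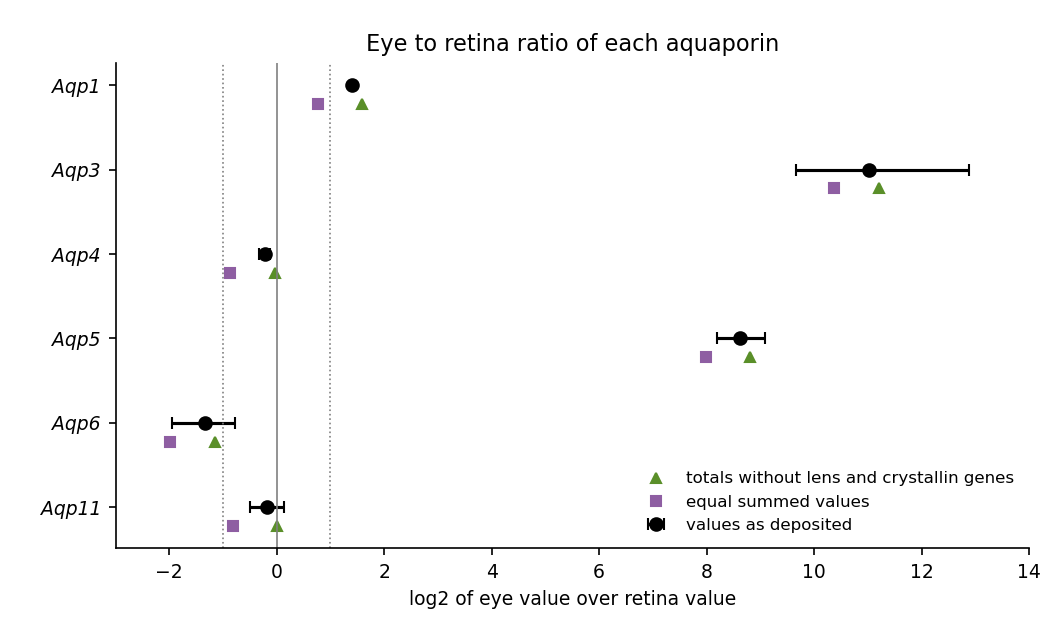
Log2 of the eye value over the retina value for the 6 aquaporins with reads in both libraries (points, with exact 95% counting intervals), beside the same ratio after 2 other scalings (triangles and squares). Dotted lines mark a fold of 2. Aqp1 falls inside them with equal summed values, and Aqp11 crosses 0 without lens and crystallin genes.

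Aqp4 is the water channel of Mueller glia and astrocytes, where it sits on the endfeet that face vessels and vitreous. Its value was 16.1 in eye (15.2 to 17.0, from 1155 reads) and 18.8 in retina (18.0 to 19.5, from 2493 reads). The retina value was 1.17-fold the eye value (1.09 to 1.25), an interval that leaves out 1, and the gene was not called. Its log2 ratio of eye over retina was -0.22, and it was -0.03 without lens and crystallin genes in the totals and -0.86 with equal summed values. Without lens and crystallin genes the retina value was 1.02-fold the eye value, with an interval of 0.954 to 1.10 that includes 1. In rank it stood at 4643 in eye and 4053 in retina.

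The 4 Mueller glia markers with a row gave 0 calls, and their ratios of eye to retina, from 0.698 (Slc1a3, a glutamate transporter) to 0.949 (Abca8a), enclosed the 0.857 of Aqp4. Glul and Crym had no row. Rlbp1, which binds retinoids in these glia, had 145 in eye against 159 in retina, and Dkk3 at 423 and 529. The rod markers lay lower, at ratios from 0.464 (Pde6a) to 0.579 (Sag), and the most abundant of them, the transducin gene Gnat1, was at 3959 and 7967. Other cells that carry Aqp4 had markers higher in eye. The astrocyte markers Gfap and S100b had ratios of 2.07 and 2.80, while Aldh1l1 and Pax2 of the same list had no row. The 6 skeletal muscle markers summed to 2712 in eye and 12.2 in retina. How much of the Aqp4 value each cell type gave was not tested.

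Aqp4 is held at the endfoot membrane by the dystrophin complex, beside the potassium channel Kir4.1. Of 10 listed genes of this complex, 9 had a row and 0 were called in either direction, beside 25.8% of all genes tested. The median log2 ratio of the 9 was -0.51, against -0.01 over all genes tested. Mlc1, a membrane protein of glial endfeet, had 27.0 in eye against 41.9 in retina, and Dmd (dystrophin) at 16.9 and 24.0. Dag1 (dystroglycan), which muscle and many epithelia also use, was at 33.9 and 21.6. Kcnj10, which encodes Kir4.1 and was picked out after its values were seen, was at 10.5 and 19.8, just short of a fold of 2. With equal summed values 5 of the 9 were called lower, where 31.9% of all genes tested were.

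Aqp6 is an intracellular channel that passes anions, known from acid-secreting cells of the kidney. Its value was 0.871 in eye (0.596 to 1.23, from 32 reads) and 2.21 in retina (1.87 to 2.59, from 150 reads). The retina value was 2.53-fold the eye value (1.72 to 3.84), and it was the only aquaporin called lower in eye. The rod markers, among which Pde6a was 2.15-fold and Sag 1.73-fold higher in retina, fell inside that interval, all below 2.53. So did genes of other lists, such as Kcnj10 at 1.89 and Slc6a6 at 1.82. The interval is wide, and how many of all genes fell inside it was not counted. Over all genes tested, 7.95% were called lower in eye. The part of rods or of any other cell type in the Aqp6 value was not tested. The call held under the 4 scalings run. It was lost with 1 added (log2 ratio -0.78), with a minimum of 5, which the gene missed, and at a fold of 4.

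Aqp11, a divergent aquaporin of the endoplasmic reticulum, was low and nearly level. Its value was 3.51 in eye (2.93 to 4.18, from 127 reads) and 3.97 in retina (3.51 to 4.48, from 266 reads). The ratio of retina to eye was 1.13 (0.913 to 1.41), which includes 1, and the sign turned without lens and crystallin genes in the totals, where the log2 ratio of eye over retina was 0.01. Aqp2, the vasopressin-regulated channel of the kidney collecting duct, had 2 reads in eye, a value of 0.0510 (0.00618 to 0.184). It was listed at 0 in retina, where 3 reads would have given 0.0413, so no fold is given.

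Aqp2, Aqp5 and Aqp6 lie side by side on chromosome 7 in GRCr8, in that order and with no other coding gene between them, and yet had unlike values. In the eye library Aqp5 was 270-fold the value of Aqp6, and in retina Aqp6 was 3.70-fold that of Aqp5. The coding genes on either side of this cluster, Faim2 (49.8 in eye and 82.3 in retina) and Racgap1 (5.33 and 2.42), differed again. Aqp3 lies next to Aqp7. In that assembly 0 genes overlapped the span of any of the 7 aquaporins. The sources used here do not say how the counting treated reads that match several related genes.

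**Figure D5:**
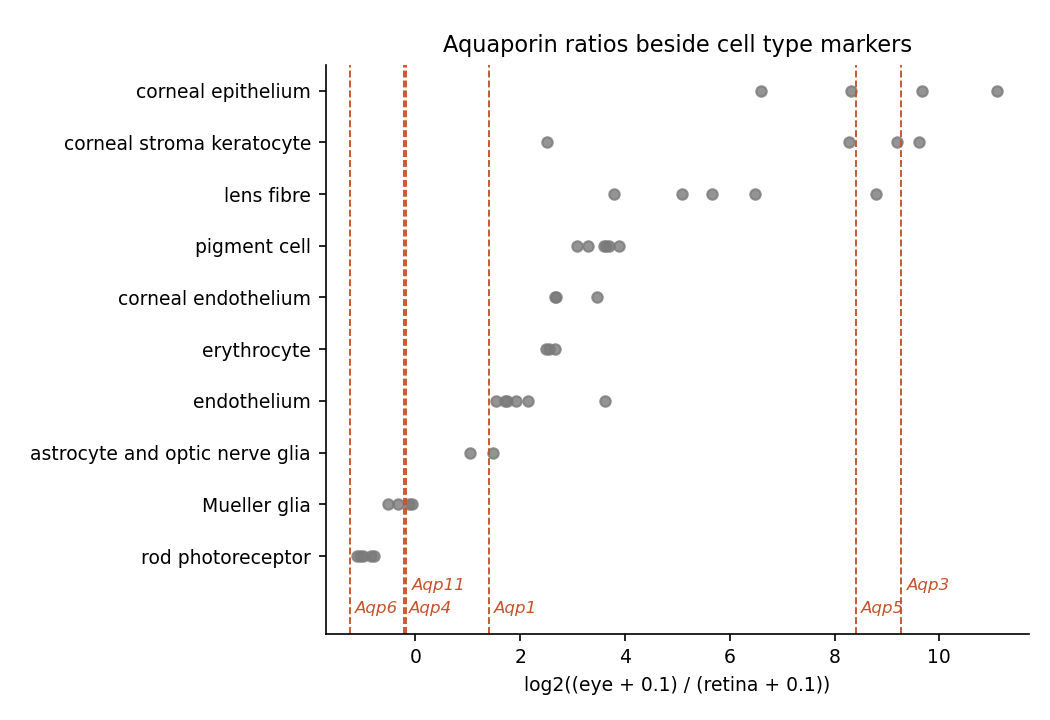
Log2 ratio of eye over retina (0.1 added) for each tested marker gene of 10 cell types (grey points), with the ratios of the 6 tested aquaporins as dashed lines. The lines of Aqp5 and Aqp3 run through the ranges of the corneal epithelium and keratocyte markers, and that of Aqp5 also through the lens fibre markers. Those of Aqp4 and Aqp11 run through the Mueller glia markers, and that of Aqp1 at 1.40 lies between the 2 astrocyte markers and just left of the endothelial markers.

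Other genes that move ions, water or glycerol were taken from fixed lists. Over all genes tested, 17.8% were called higher in eye and 7.95% lower, with a median log2 ratio of -0.01. Of 15 fluid secretion and pump genes with a row, 6 were called higher in eye and 0 lower, with a median of 0.21. The most abundant were level: carbonic anhydrase 2, listed under its older symbol Ca2, at 238 in eye and 277 in retina, the sodium pump subunit gene Atp1b1 at 236 and 217, and the membrane carbonic anhydrase gene Car14 at 166 and 144. Among the called genes was Slc4a11, a transporter of corneal endothelium that is also in the marker list of those cells. The other 5 had ratios from 2.04 to 4.73. The highest of these, that of Car4, came from 23 reads in eye and 9 in retina, with an interval from 2.11 to 11.6. At a fold of 4, 1 gene was called higher, against 9.07% of all genes tested. With equal summed values 3 were higher and 2 lower, against 11.5% and 31.9% of all genes tested.

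Of 11 tested genes of osmotic stress and cell volume, 1 was called (higher in eye, as were 17.8% of all genes), with a median log2 ratio of 0.53. It was Akr1b1, the aldose reductase that makes the osmolyte sorbitol, at 175 in eye and 79.2 in retina (ratio 2.21), and it was not called with equal summed values, where 0 were higher and 2 lower beside the same 11.5% and 31.9%. Adding 0.01, using recovered reads, or leaving lens and crystallin genes out of the totals gave 2 calls. The taurine transporter gene Slc6a6 was at 82.5 and 150.2, and Sgk1, a kinase that regulates ion transport, at 49.4 and 41.4. Of 10 genes that handle glycerol, the second cargo of Aqp3, 3 were called higher and 0 lower, beside 17.8% and 7.95% of all genes. The median was 0.36, and 0 of the 10 reached a fold of 4, where 9.07% of all genes were called higher. The 3 called were Gpd1, which makes glycerol 3-phosphate (17.3 and 4.38), the lipase gene Lpl (27.6 and 7.69) and Gk, glycerol kinase (6.79 and 2.40). Mgll, a monoglyceride lipase and the most abundant of them, was at 44.9 and 48.6, the lipase gene Pnpla2 at 23.2 and 13.2, and Dgat1, which makes triglyceride, at 18.1 and 26.3. Of the 4 adipocyte markers with a row, all 4 were called higher in eye, with sums of 40.1 and 0.833 and Adipoq listed at 0 in retina. Their part in the glycerol genes was not tested.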

How the data were processed

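The deposited table of each tissue gave 1 value per gene, taken as RPKM. Neither the labels nor the file headers name that unit. GSNAP, HTSeq and the build rn4 are named in the submitters' processing notes; these sources do not give versions, settings, annotation, strand use or whether technical replicates were joined. Each table held 14533 rows, 7 of them ND, and 41 repeated names, of which the row with more decimals was kept. The members and lists were chosen with earlier results of these data known.

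The library totals were found as the whole numbers that make each value a whole number of reads over a whole length. All 13980 genes searched gave whole reads, with rounding of the deposited decimals as the tolerance. The smallest fit was used, which by itself can only make intervals too wide. For 401 names with at most 5 decimals none were sought. The recovery and the calls were tested on simulated data. Folds of named genes are ratios of the values as deposited, with Clopper-Pearson intervals, and intervals of a value are exact Poisson intervals. PCR copies cannot be told from separate molecules and would make intervals too narrow. Intervals cover counting error only. Depth was 1.85 times higher in retina.

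As planned for 1 column per tissue, no test was run. The naming rule took all members with a row, the 3 most abundant genes of each list a result is set beside, called genes where 5 or fewer were called, markers listed at 0, genes that overlap a member, and the 3 nearest genes of the leading member of each library. Several marker lists are given by counts, sums and ranges without every gene the rule took. Kcnj10, Faim2, Racgap1 and genes at the ends of ranges were named after their values were seen. One listed rod marker was left out and is not reported here. The planned protein comparison was not run, and protein sequences were not used here. Varied were the value added (1 or 0.01), the minimum (none or 5), the fold (4), 4 scalings, recovered reads with 0.5 added, and rows of few decimals. Python 3.11.15, scipy 1.17.1 and pandas 2.3.3 were used.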

Additional observations from a re-analysis of the deposited data

How the results depend on the processing

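No paired analysis was possible because each tissue had 1 column of values, and leaving out a replicate could not be run for the same reason. The number of aquaporins higher in eye, 3 as reported, was 2 for equal summed values and for a fold of 4, and 3 in the other 9 alternatives. The number lower, 1 as reported, was 0 for 3 of them: 1 added, a minimum of 5, and a fold of 4. Of 64 log2 ratios of single aquaporins under an alternative, 63 kept their sign, and the exception was Aqp11 without lens and crystallin genes in the totals (0.010). Many of the 64 could not change sign. The minimum, the fold and the rows left out do not alter a ratio, and the value added cannot turn its sign. Only the 4 scalings and the recovered reads could do so. Over all genes, 2366 were higher, or 1203 for a fold of 4, 1471 for a minimum of 5 and 1519 for equal summed values. Lower were 1054, or 655 with 1 added, 569 without lens and crystallin genes, 12 for a fold of 4 and 4232 for equal summed values. The scalings moved the log2 ratio by 0.19 without these 14 genes and by -0.64 with equal summed values, before 0.1 was added, and by less than 0.01 with a trimmed mean (-0.0037) and a median of ratios (0.0073), both computed on RPKM. Of the calls made, 69.2% over all genes were toward eye, against 26.4% with equal summed values and 83.1% without lens and crystallin genes. An interval from a log normal approximation ran from 776 to 5511 for Aqp3, and from 2.58 to 2.73 for Aqp1. Depth limits Aqp2 and, in retina, Aqp3.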

Other observations

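Another pair of aquaporin genes outside the rule had rows. Mip, the aquaporin of lens fibre cells, was at 1153 in eye (from 77643 reads) and 22.8 in retina (from 2834 reads), a ratio of 50.7 (48.8 to 52.7), and its eye value was above the sum of the 7 aquaporins described. Aqp12a, an intracellular aquaporin of pancreatic acinar cells, was at 0.554 in eye, from 17 reads, and 0.0352 in retina, from 2 reads, with a ratio of 15.7 and an interval from 3.73 to 140 that allows a wide range of differences.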
